A study of Mus musculus with 16 samples.

Results

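Ndufa4l2, Cox4i1, Cox4i2, Higd1a, Bnip3, Bnip3l and Fundc1 are 7 nuclear genes whose proteins sit in or on mitochondria, most of them known from cells short of oxygen. They were taken by symbol from the count tables of mouse embryo heads, where all 7 were among the 24421 genes listed and all 7 among the 14514 with enough counts to be tested. In embryos without a functional Ift88 gene, 5 of the 7 were higher than in wild type on both diets: Ndufa4l2 14.2-fold on the moderate and 11.8-fold on the enriched diet, Cox4i2 5.82- and 4.63-fold, Bnip3 5.36- and 4.22-fold, Bnip3l 1.97- and 1.60-fold and Higd1a 1.59- and 1.42-fold. Cox4i1 and Fundc1 did not pass the test on either diet.

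When oxygen is short, hypoxia-inducible factors, whose alpha subunits are otherwise marked for destruction by prolyl hydroxylases, enter the nucleus and switch on genes for glucose use, red cell and vessel growth and the remodelling of mitochondria. Part of that remodelling exchanges subunits of cytochrome c oxidase, or complex IV, the enzyme that passes electrons to oxygen. Another part removes mitochondria through mitophagy, in which receptors on the outer mitochondrial membrane bind proteins of the LC3 family on a growing autophagosome. The head of the embryo at this stage is a small tissue whose blood supply is only being laid down, and glycolysis is a prominent source of its energy.

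RNA was sequenced from F3 heads at embryonic day 8.5, cut from the first arch to a level just past the otic vesicle. The libraries fall into 4 groups of 4: wild type or homozygous IFT88-NULL (mutant) embryos, from mice kept for 3 generations on a moderate diet of 2 ppm folic acid or an enriched diet of 10 ppm. Every group, wild type on the moderate diet included, received folic acid in its diet. The mutation is carried by the whole embryo, and Ift88 encodes a subunit of the transport particle that builds cilia. The labels give no litter, so whether the 4 embryos of a group had separate mothers is not known, and a p-value here speaks only for the spread among the libraries at hand.

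Libraries held 19249433 to 44267434 assigned counts. Ift88, the check of the labels, lay at 9.30 to 20.9 CPM (counts-per-million, computed on totals scaled between libraries) in wild type and at 2.01 to 8.61 CPM in mutants, lower in 8 of 8 mutants. Of 18 markers of head neural tissue and mesenchyme, none was below 1 CPM throughout, and their summed level was 1351 to 1572 CPM over all 16 libraries. Of these 18 none rose and 1 fell on the moderate diet, and 2 rose and 1 fell on the enriched diet. Of all genes 7.62% and 31.2% passed in either direction. The fall on both diets was in Lhx2, a forebrain and eye transcription factor (-0.78 and -1.33 on the log2 scale). Moderate diet mutant replicate 3 was the lowest mutant in the 5 members that rose. The second library labelled as wild type on the moderate diet (replicate 2) had an Ift88 level of 9.30 CPM, nearer to the highest mutant, at 8.61 CPM, than to the other wild type libraries, at 17.9 to 20.9 CPM. In 3 libraries, that one and those labelled moderate diet mutant replicates 1 and 2, the labelled sex went against the counts, and whether labels were exchanged was not tested. Genotype differences of the members that rose are therefore given on the moderate diet with and without these libraries. The counts given for gene lists there are repeated without them where they changed. Leaving out the 3 of contradicted sex leaves 3 wild type and 2 mutant libraries on that diet. Of the 18 head markers 2 rose and 1 fell there without mutant replicate 3. None passed without wild type replicate 2 or without the libraries of contradicted sex.

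Hypoxia-inducible factors bind the core sequences ACGTG and GCGTG, so annotated promoter windows of 2 members that rose and of 1 that did not pass are shown. RefSeq windows of the GRCm38.p6 build were at hand for 3 of the 7 members. The 250 bases before the RefSeq start are shown, 5′ to 3′ on the gene's own strand. Every match to either core on either strand is in capitals. The windows are chr7:138909507-138909756 for Bnip3, chr9:121857797-121858046 for Higd1a and chrX:17572008-17572257 for Fundc1, all on the minus strand. By the GENCODE positions given below, the Higd1a and Fundc1 windows lie inside the gene, and the Bnip3 window overlaps its first bases. Which start was used in these heads was not tested.
Bnip3: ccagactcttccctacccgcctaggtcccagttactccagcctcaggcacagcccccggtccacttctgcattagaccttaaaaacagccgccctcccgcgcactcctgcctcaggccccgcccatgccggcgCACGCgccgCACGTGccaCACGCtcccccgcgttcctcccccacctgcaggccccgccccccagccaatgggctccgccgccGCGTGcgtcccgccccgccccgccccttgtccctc
Higd1a: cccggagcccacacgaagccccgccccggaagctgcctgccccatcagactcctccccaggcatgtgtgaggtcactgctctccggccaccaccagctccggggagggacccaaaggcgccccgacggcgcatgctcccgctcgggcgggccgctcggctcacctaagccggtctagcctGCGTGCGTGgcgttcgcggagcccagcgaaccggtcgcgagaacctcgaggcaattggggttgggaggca
Fundc1: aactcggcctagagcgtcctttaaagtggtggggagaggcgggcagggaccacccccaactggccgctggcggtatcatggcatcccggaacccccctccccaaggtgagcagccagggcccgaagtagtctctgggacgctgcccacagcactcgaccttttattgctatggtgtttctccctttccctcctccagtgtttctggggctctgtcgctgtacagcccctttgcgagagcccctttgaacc
The Bnip3 window held 5 matches, 2 of ACGTG and 3 of GCGTG. The ACGTG matches are the 2 strands of one palindrome that overlaps itself, 107 and 108 bases before the RefSeq start. The Higd1a window held 2 overlapping GCGTG matches, 66 and 70 bases before the RefSeq start, and the Fundc1 window held none. Of all 32841 windows of the same length, 16.6% held ACGTG, 28.2% held GCGTG and 38.6% held either, so a match by itself is common. Among paralogs that did not pass on either diet, the window of Higd2a held 3 GCGTG matches, that of Fundc2 held 1 ACGTG match and that of Ndufa4 held none. Fundc2 did pass with the diets averaged (0.23, edgeR adjusted p = 0.0404). With windows for 3 of the 7 members, whether matches went with the change was not tested. The windows also differed in base composition: the CpG count was 24 for Bnip3, 26 for Higd1a and 11 for Fundc1, against a median of 6. A match describes letters only, and binding was not measured in these samples.

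Complex IV subunit 4 exists in a common form, Cox4i1, and a form favoured in low oxygen, Cox4i2. Cox4i2 (chr2:152754173-152765037 of mm10, plus strand) was at 1.68, 1.74, 1.65 and 1.79 CPM in moderate diet wild type replicates 1 to 4 and at 11.6, 12.0, 5.21 and 11.7 CPM in the mutants. On the enriched diet it was at 3.74, 2.69, 2.19 and 3.23 CPM in wild type and at 15.4, 16.4, 10.3 and 11.0 CPM in mutants. All 8 mutants lay above all 8 wild type libraries, with moderate diet mutant replicate 3 the lowest mutant. The log2 fold change was 2.54 ± 0.26 (SE) with 2 ppm folic acid (edgeR's quasi-likelihood test, adjusted p = 2.32e-05 by Benjamini and Hochberg over all genes) and 2.21 ± 0.25 with 10 ppm (adjusted p = 5.74e-05). The wild type values rest on 35 to 106 counts per library, so they carry more counting error than those of the other members except Ndufa4l2.

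Cox4i1 (chr8:120668222-120674207, plus strand), the form made in most tissues, was far more abundant and did not pass the test. Its mean in moderate diet embryos was 266 ± 13.1 CPM in wild type and 300 ± 43.6 CPM in mutants (SD, n = 4), and in enriched diet embryos 288 ± 33.0 and 269 ± 39.7 CPM. The genotypes overlapped on both diets. The 95% interval of the log2 fold change ran from -0.06 to 0.42 on the moderate diet (edgeR adjusted p = 0.370) and from -0.37 to 0.13 on the enriched diet (adjusted p = 0.467), so a 2-fold difference in either direction lies outside both. Cox4i1 shares 154 exon bases with Emc8 on the other strand. Emc8 fell by 0.66 ± 0.09 (SE) on the enriched diet (edgeR adjusted p = 0.000145), and because the library kit keeps no strand, reads on the shared bases cannot be divided between them.

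Ndufa4l2 (chr10:127514967-127517154, plus strand) is the low oxygen paralog of Ndufa4, a small subunit associated with complex IV, and is known to lower respiration. It was near the bottom of the counts in wild type, at 1.97, 1.07, 1.75 and 1.54 CPM on the moderate diet and at 2.73, 2.25, 1.93 and 5.00 CPM on the enriched diet. Mutant replicates 1 to 4 held 29.7, 26.3, 11.3 and 24.2 CPM on the moderate diet and 27.3, 42.9, 32.3 and 29.2 CPM on the enriched diet. Every mutant was above every wild type library, and the lowest mutant, moderate diet replicate 3, was at more than 2-fold the highest wild type value. The log2 fold change was 3.83 ± 0.31 (SE; edgeR adjusted p = 2.95e-06) and 3.56 ± 0.30 (adjusted p = 4.00e-06) on the moderate and the enriched diet. Ndufa4 itself did not pass, at 0.11 ± 0.12 and -0.29 ± 0.13 (edgeR adjusted p = 0.648 and 0.0977). Ndufa4l2 shares 32 exon bases with Shmt2, a mitochondrial folate enzyme on the other strand that rose from 191 ± 11.4 to 349 ± 67.9 CPM (SD, n = 4) on the moderate diet. The part of Shmt2 reads in the counts of Ndufa4l2 was not tested.

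Higd1a (chr9:121848563-121858362, minus strand) encodes a small inner membrane protein that binds complex IV and protects cells in low oxygen. It was at 24.8, 29.2, 24.9 and 29.3 CPM in moderate diet wild type and at 45.3, 50.5, 32.6 and 43.7 CPM in the mutants. Enriched diet wild type held 35.8, 28.2, 29.0 and 31.3 CPM and the mutants 45.9, 45.5, 48.7 and 37.5 CPM. The groups did not overlap within a diet, but moderate diet mutant replicate 3 lay under enriched diet wild type replicate 1. The log2 fold changes of 0.67 ± 0.13 (SE; edgeR adjusted p = 0.00412) and 0.51 ± 0.13 (adjusted p = 0.00824) were the smallest of the 5 that passed. Without the 3 libraries of contradicted sex the moderate diet value was 0.51 and no longer passed (edgeR adjusted p = 0.225). Higd1a shares 683 exon bases with Gm47112, an antisense gene that is absent from the count tables. The part of Gm47112 reads in the counts of Higd1a was not tested. Its relatives Higd1b, a gene of pericytes, and Higd1c were at 0 to 3 counts and at 0 counts per library and were not tested, and Higd2a, another complex IV factor, did not pass on either diet (0.29 ± 0.12, adjusted p = 0.151, and 0.03 ± 0.12, adjusted p = 0.860).

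Of the mitophagy receptors, Bnip3 (chr7:138890836-138909519, minus strand) changed most. It was at 26.8, 39.7, 30.3 and 35.2 CPM in moderate diet wild type and at 196, 252, 64.9 and 199 CPM in the mutants. Enriched diet wild type held 83.3, 32.5, 36.6 and 59.3 CPM and the mutants 228, 231, 202 and 191 CPM. Within each diet the genotypes did not overlap, and across diets moderate diet mutant replicate 3 fell below enriched diet wild type replicate 1. The log2 fold changes on the moderate and the enriched diet were 2.42 ± 0.34 (SE; edgeR adjusted p = 0.000357) and 2.08 ± 0.34 (adjusted p = 0.000600). Bnip3 shares 504 exon bases with Gm45507, an antisense gene that is absent from the count tables. The part of Gm45507 reads in the counts of Bnip3 was not tested.

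Bnip3l (chr14:66985239-67008877, minus strand), also called Nix, is the paralog of Bnip3 that clears mitochondria from maturing red cells. Its wild type level was higher than that of Bnip3 and its rise smaller. Replicates 1 to 4 held 210, 220, 181 and 185 CPM in moderate diet wild type and 414, 464, 311 and 380 CPM in the mutants. On the enriched diet they held 275, 237, 208 and 225 CPM in wild type and 401, 381, 422 and 328 CPM in mutants. All 8 mutants lay above all 8 wild type libraries, and moderate diet mutant replicate 3 was again the lowest of the mutants. Its log2 fold change of 0.98 ± 0.12 (SE; edgeR adjusted p = 9.52e-05) on the moderate diet compares with 0.67 ± 0.12 (adjusted p = 0.000995) in the enriched diet embryos.

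Bnip3l lies on the same chromosome as Ift88, 9.47 Mb away. Of its 14 tested neighbours within 1 Mb, 1 rose on the moderate diet and 2 rose and 1 fell on the enriched diet, and the part of linkage to Ift88 in its rise was not tested. Among all genes, 7.62% passed in either direction on the moderate and 31.2% on the enriched diet. Bnip3l is known from red cells, so their genes are given beside it. The summed level of 14 erythroid markers was 2499 to 6596 CPM in moderate diet wild type and 1264 to 3429 CPM in the mutants, and 1543 to 3874 and 732 to 3615 CPM in wild type and mutants on the enriched diet, with overlapping ranges on both. Of 12 tested erythroid markers none rose on either diet, and 1 fell on the moderate and 4 on the enriched diet, where 2.83% and 16.8% of all genes fell. All 12 log2 fold changes were below 0 on both diets. They ran from -1.32 to -0.73 on the moderate diet (median -0.97) and from -1.79 to -0.05 on the enriched diet (median -0.91). On the moderate diet 7 fell without mutant replicate 3 (14.6% of all genes then passed in either direction), 0 without wild type replicate 2 and 0 without the libraries of contradicted sex. In the same order, the median there was -1.29, -0.69 and -0.33. The part of red cells in the rise of Bnip3l was not tested. In a bulk sample, fewer cells of a type and less RNA per cell cannot be told apart.

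Fundc1 (chrX:17556564-17572325, minus strand) is a receptor whose activity in low oxygen is known to be set by phosphorylation. Its mean level in moderate diet embryos was 32.9 ± 2.21 CPM in wild type and 34.9 ± 1.02 CPM in mutants (SD, n = 4), and in enriched diet embryos 35.4 ± 3.39 and 31.8 ± 4.09 CPM. The log2 fold change of 0.08 (95% interval -0.11 to 0.27, edgeR adjusted p = 0.632) on the moderate diet and -0.18 (-0.38 to 0.01, adjusted p = 0.142) on the enriched diet did not pass, and a 2-fold difference lies outside both intervals. Its paralog Fundc2 did not pass on either diet (0.29 ± 0.11, adjusted p = 0.139, and 0.17 ± 0.12, adjusted p = 0.296). With the diets averaged, Fundc2 was higher in mutants by 0.23 (95% interval 0.05 to 0.40, edgeR adjusted p = 0.0404), where 5202 of 14514 genes passed.

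**Figure D1:**
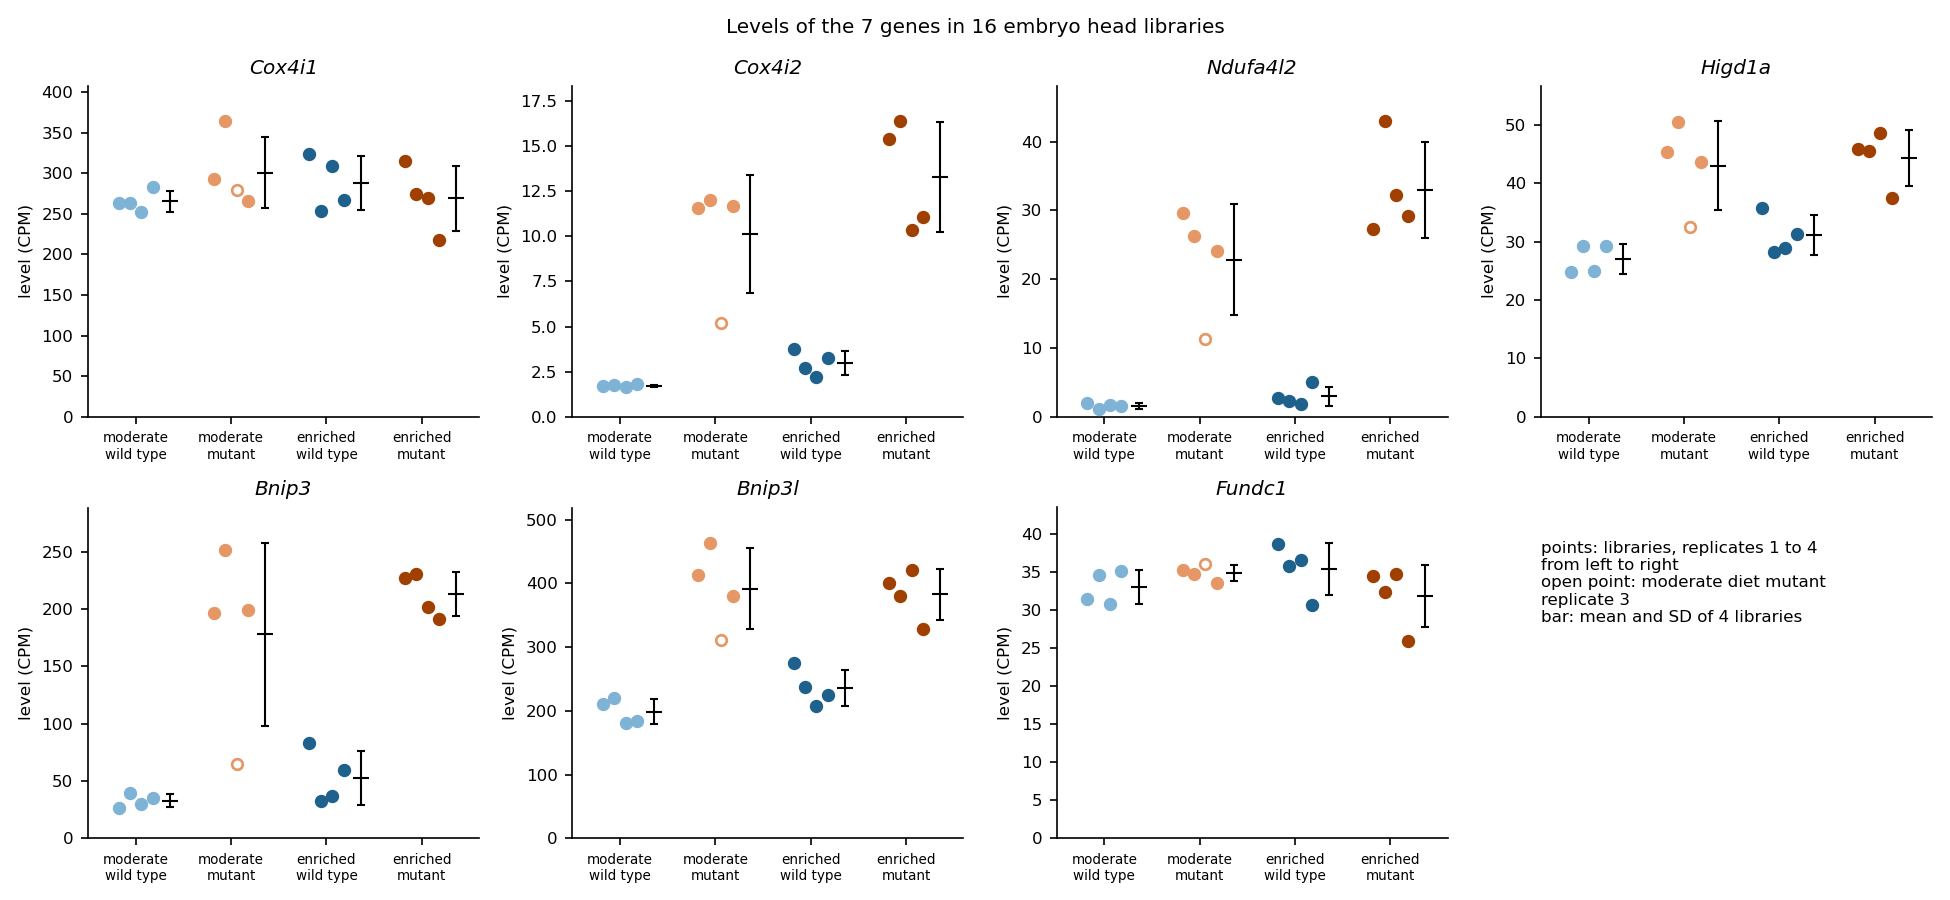
Levels of the 7 genes in CPM (vertical axes, from 0) in each of 16 libraries, by diet and genotype on the horizontal axes, with the mean and SD of 4 libraries beside the points. The open point, moderate diet mutant replicate 3, is the lowest mutant in the panels of Cox4i2, Ndufa4l2, Higd1a, Bnip3 and Bnip3l but not in those of Cox4i1 and Fundc1.

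In all, 5 of 7 members rose and 0 fell on each diet. Among all 14514 genes tested, 4.79% rose and 2.83% fell on the moderate diet, and 14.4% rose and 16.8% fell on the enriched diet. The same 5 members had every mutant above every wild type library of their diet, which 8.5% of genes showed on the moderate diet and 11.2% on the enriched diet. With both diets pooled, 3 of 7 members (Ndufa4l2, Bnip3l and Cox4i2) had all 8 mutants above all 8 wild type libraries, against 2.51% of genes. The median log2 fold change of the members was 0.98 on the moderate diet, where that of all genes was -0.01, and 0.67 on the enriched diet. The 5 calls held on the moderate diet without mutant replicate 3, with values of 4.05 for Ndufa4l2, 2.77 for Cox4i2, 2.71 for Bnip3, 1.09 for Bnip3l and 0.79 for Higd1a, and without wild type replicate 2, at 3.73, 2.56, 2.55, 1.03 and 0.71 in the same order. Without the 3 libraries of contradicted sex, Ndufa4l2 (3.43), Cox4i2 (2.31), Bnip3 (2.16) and Bnip3l (0.80) passed and Higd1a did not.

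The diets shifted no member past the threshold. Between diets 0% of genes passed by edgeR in either genotype, with 354 genes at an unadjusted p under 0.05 in wild type and 1565 in mutants. DESeq2 called 1 gene in wild type and 3 in mutants, none of them a member, and limma-voom called 0 in both. In wild type, all 7 estimates were above 0 with a median of 0.29, and Cox4i2 (0.70 ± 0.29 SE, unadjusted p = 0.0266) and Bnip3l (0.29 ± 0.13, unadjusted p = 0.0350) were the 2 members under an unadjusted 0.05 (edgeR adjusted p = 0.967 for both). Cox4i2 was the only member whose 4 enriched diet wild type libraries all lay above the 4 moderate diet ones, which 1.47% of genes showed. No member was so placed in mutants, where 1.46% of genes were. Ndufa4l2 stood at 0.71 ± 0.35 and Bnip3 at 0.56 ± 0.36 in the same comparison. In mutants 4 estimates were above 0 and 3 below, the largest being 0.44 ± 0.26 for Ndufa4l2 (edgeR adjusted p = 0.516).

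The genotype difference did not change detectably with the diet. All 7 estimates of that change were below 0, from -0.16 for Higd1a to -0.34 for Bnip3, but none passed (smallest edgeR adjusted p = 0.501, with 0% of genes called and 1401 genes at an unadjusted p under 0.05; DESeq2 and limma-voom also called 0 genes). The 95% interval ran from -1.16 to 0.62 for Ndufa4l2 and from -1.33 to 0.64 for Bnip3, so differences of 2-fold between the diets could not be told from none in these genes. The 7 estimates share the same 16 libraries and are not independent of each other.

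**Figure D2:**
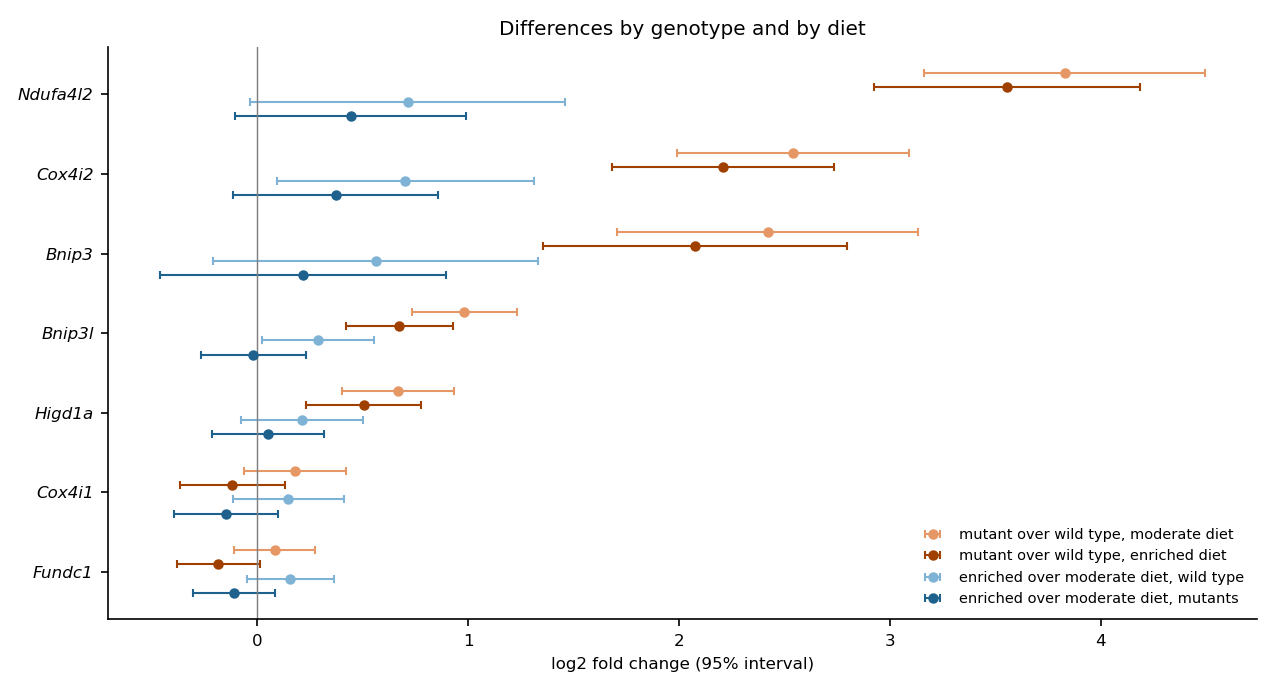
Log2 fold changes (horizontal axis) of the 7 genes, 1 row per gene, with 95% intervals from edgeR; the colours separate mutant over wild type on each diet from enriched over moderate diet in each genotype. The genotype intervals of Ndufa4l2, Cox4i2, Bnip3, Bnip3l and Higd1a lie above 0 on both diets, while those of Cox4i1 and Fundc1 include 0.

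Per length of the gene's exons, the order of the levels differed between genotypes. In moderate diet wild type it was Cox4i1 at 171 ± 8.44 CPM per kb (SD, n = 4), Bnip3l at 51.6 ± 4.91, Bnip3 at 14.6 ± 2.48, Fundc1 at 14.0 ± 0.941, Higd1a at 8.90 ± 0.830, Cox4i2 at 2.18 ± 0.0783 and Ndufa4l2 at 1.44 ± 0.352. Bnip3 and Fundc1 did not differ there beyond their spread. In enriched diet mutants Cox4i1 at 174 ± 25.6 CPM per kb still led, Bnip3l at 99.2 ± 10.4 and Bnip3 at 94.0 ± 8.51 were within their spread of each other, and Ndufa4l2 had moved up to 30.1 ± 6.37. Cox4i2 at 16.9 ± 3.85, Higd1a at 14.6 ± 1.57 and Fundc1 at 13.5 ± 1.74 followed with overlapping spreads. Moderate diet mutants had the same leading order, with Cox4i1 at 194 ± 28.1, Bnip3l at 102 ± 16.6, Bnip3 at 78.6 ± 35.2 and Ndufa4l2 at 20.9 ± 7.33 CPM per kb.

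The ratio of a gene to its paralog does not depend on library scaling. Of the partners used here, Cox4i1 and Ndufa4 did not pass on either diet, while Bnip3l itself rose on both. Cox4i2 made up 1.26 ± 0.0264% (SD, n = 4) of the length-corrected reads of Cox4i2 and Cox4i1 in moderate diet wild type and 6.20 ± 1.93% in the mutants, and 1.99 ± 0.425% and 8.84 ± 1.42% on the enriched diet. Cox4i1 kept the larger part by far, since the highest Cox4i2 share was 10.5%, in enriched diet mutant replicate 2. The share of Ndufa4l2 against Ndufa4 was 1.17 ± 0.341% and 13.6 ± 4.63% in moderate diet wild type and mutants, and 2.06 ± 1.17% and 21.2 ± 4.51% on the enriched diet. Bnip3 held 22.0 ± 2.94% of the reads of Bnip3 and Bnip3l in moderate diet wild type and 41.6 ± 10.3% in the mutants, against 26.8 ± 6.95% and 48.7 ± 2.56% on the enriched diet, close to equal amounts of both receptors in enriched diet mutants. Without mutant replicate 3, the moderate diet mutants held 7.09 ± 0.937% of Cox4i2, 15.7 ± 2.23% of Ndufa4l2 and 46.7 ± 1.73% of Bnip3 (SD, n = 3).

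These pairs were formed after the levels had been seen. With genotype labels permuted within each diet, the log2 ratio was higher in mutants by 2.29 for Cox4i2 to Cox4i1, 3.75 for Ndufa4l2 to Ndufa4 and 1.36 for Bnip3 to Bnip3l (exact two-sided permutation test, p = 0.000408 each, the smallest that 4900 arrangements can give, and 0.000816 adjusted over 6 tests). With diet labels permuted within each genotype, the ratio was higher on the enriched diet by 0.63 for Cox4i2 to Cox4i1 (exact p = 0.00286, adjusted p = 0.00429) and by 0.79 for Ndufa4l2 to Ndufa4 (exact p = 0.00776, adjusted p = 0.00931). For Bnip3 to Bnip3l the diet difference of 0.39 did not pass (exact p = 0.0865, adjusted p = 0.0865). The diet difference of Cox4i2 to Cox4i1 was 0.65 in wild type and 0.60 in mutants, and that of Ndufa4l2 to Ndufa4 was 0.74 and 0.83. The mutant values include moderate diet replicate 3, whose log2 ratios of -4.77 and -3.70 were the lowest of its group. The wild type value of Ndufa4l2 includes enriched diet replicate 4, at -4.66 against -6.29 to -5.89 in its group's other libraries. The differences within a genotype were not recomputed without these libraries. With each library left out in turn, the difference over both genotypes ran from 0.49 to 0.71 and from 0.61 to 0.88. The adjustment covers 6 tests of 3 ratios only, while no single gene passed between diets when all genes were tested, and litter and diet cannot be told apart from the labels.

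**Figure D3:**
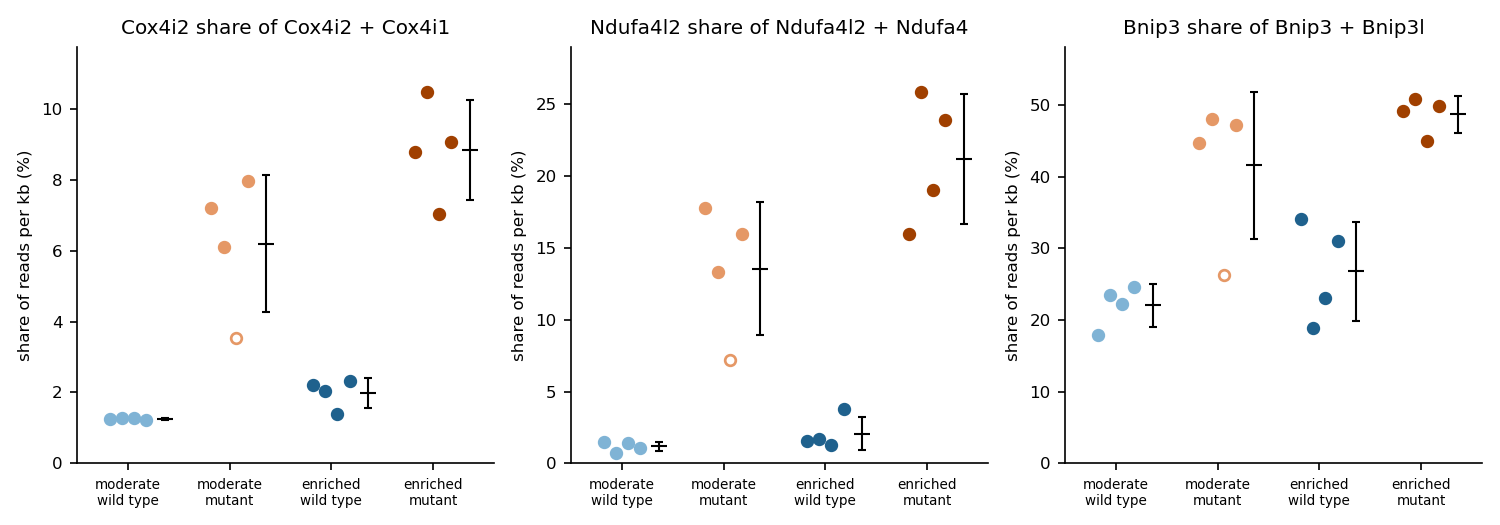
Share in percent (vertical axes, from 0) of length-corrected reads held by the first gene of each pair, by library and group, with the mean and SD of 4 libraries. The shares are higher in mutants on both diets; in the Bnip3 panel moderate diet mutant replicate 3 (open point, 26.3%) lies among the wild type libraries.

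Library by library, the members that rose fell into groups by the likeness of their profiles. Likeness was measured as the root mean square difference of centred log2 CPM over 16 libraries, and it is a description, since all profiles share the same libraries and the same difference between genotypes. Bnip3 and Cox4i2 differed by 0.26, although each varied by 1.23 around its own mean. Bnip3l and Higd1a differed by 0.16 and varied by 0.45 and 0.34 around their own means. Cox4i1 and Fundc1, which did not pass, differed by 0.12. That is little less than their own variation of 0.17 and 0.13, so this small distance comes with flat profiles. Ndufa4l2 was farther from its nearest member, Cox4i2, at 0.74. Enriched diet wild type showed this too: replicates 1 and 4 were the highest 2 of the group in Bnip3, Cox4i2 and Ndufa4l2 alike, with replicate 1 the highest in Bnip3 and Cox4i2 and replicate 4 in Ndufa4l2.

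Among all genes, the profiles most like Ndufa4l2 were those of Ddit4 (0.51), an inhibitor of growth signalling, the repressor Bhlhe41 (0.52) and Ier3 (0.53). For Bnip3 they were the sugar phosphate enzyme Pgm2 (0.25), Cox4i2 (0.26) and Ankrd37 (0.31), and for Cox4i2 they were Pgm2 (0.21), Bnip3 (0.26) and the oxidase of protein folding Ero1l (0.31). The profiles nearest to Bnip3l were those of 3 glycolytic enzymes, Tpi1 (0.0864), Aldoa (0.105) and Pgk1 (0.119). Higd1a was closest to Fahd1 (0.0761), Map2k1 (0.0878) and Pla2g12a (0.0919). Cox4i1 was closest to Pfdn5 (0.0408), Trnau1ap (0.0430) and Atp5d (0.0453), the last a subunit of ATP synthase, and Fundc1 to Mesdc2 (0.0504), Commd8 (0.0514) and Ctnnbl1 (0.0515).

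**Figure D4:**
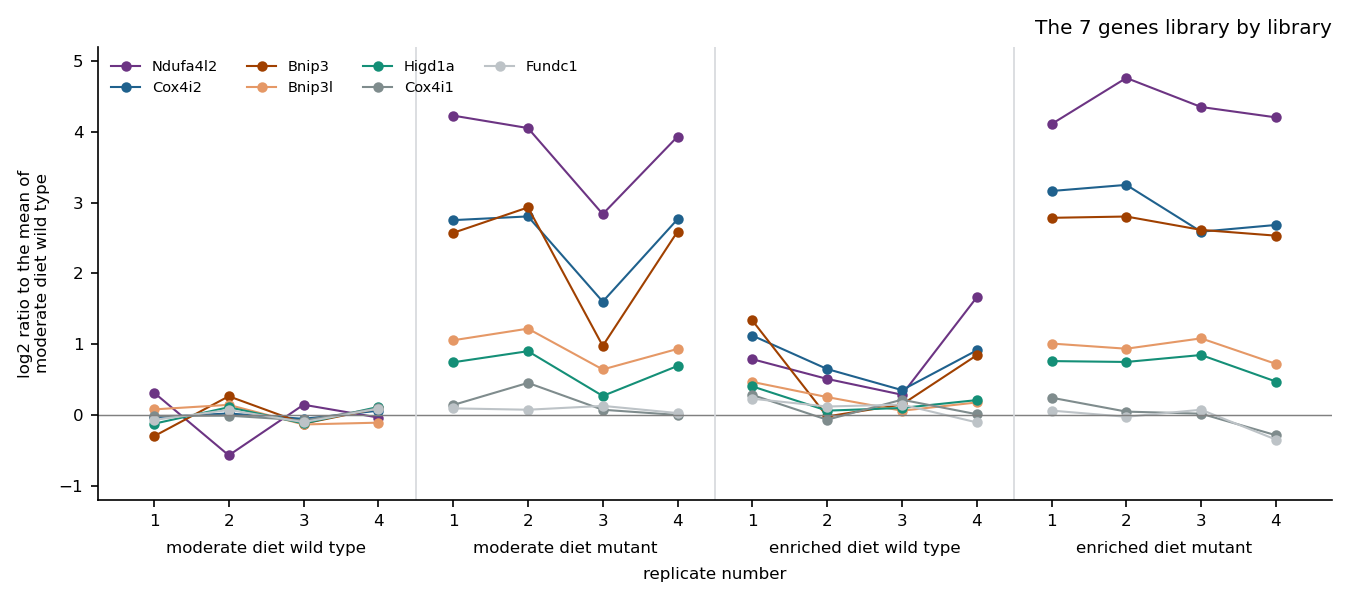
Log2 ratio of each gene's CPM to its mean in moderate diet wild type (vertical axis) in replicates 1 to 4 of each group (horizontal axis), with lines joining the libraries of a group only to guide the eye. Bnip3 and Cox4i2 run close together, Ndufa4l2 lies highest in all mutants, and moderate diet mutant replicate 3 dips in the 5 genes that rose.

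Genes around the members show which parts of mitochondrial biology moved with them. Of 25 other low oxygen targets in mitochondria and glucose use, 21 rose and 1 fell on the moderate diet and 21 rose and 2 fell on the enriched diet, with median log2 fold changes of 0.84 and 0.66. The glycolytic enzymes Pfkl (0.84 ± 0.08 SE and 0.55 ± 0.08 on the moderate and the enriched diet), Tpi1 (1.08 ± 0.11 and 0.60 ± 0.12) and Pfkp (2.34 ± 0.25 and 2.39 ± 0.25) and the oxidase Ero1l (1.91 ± 0.24 and 2.25 ± 0.24) rose on both. The fall on both diets was in Pfkfb4, a regulator of glycolysis (-0.60 and -0.64), and that on the enriched diet alone in Iscu, which builds iron-sulfur clusters (-0.43), both named after their values were seen. Of 23 other low oxygen targets 21 and 22 rose and 0 fell, with Adm, a vasodilator peptide, at 5.37 ± 0.53 and 5.37 ± 0.50. On the moderate diet the counts of rises in the 2 lists were again 21 and 21 without mutant replicate 3 (14.6% of all genes passed) and without wild type replicate 2 (4.94%). Without the libraries of contradicted sex they were 11 of 25 and 13 of 23, where 0.726% of all genes passed, with medians of 0.73 and 1.72. No gene of either list, Pfkfb4 included, then fell past the threshold on the moderate diet.

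Oxygen sensing genes themselves were mixed. Of 12 genes for factor subunits and oxygen sensors 3 rose and 1 fell on the moderate diet, and 4 rose and 2 fell on the enriched diet. The prolyl hydroxylases Egln3 (1.88 ± 0.25 SE and 1.89 ± 0.25) and Egln1 (1.55 ± 0.23 and 1.60 ± 0.23), themselves known targets of the factors, and the ubiquitin ligase Siah2 (1.01 ± 0.18 and 1.02 ± 0.18) rose on both diets, while Egln2 fell on the enriched diet (-0.47 ± 0.08). Hif1a, a factor subunit named after its values were seen, fell by 0.35 and 0.46 in RNA (edgeR adjusted p = 0.0411 and 0.00358). On the moderate diet 3 of the 12 rose and 0 fell without wild type replicate 2. Without the libraries of contradicted sex, 2 of the 12 rose and 0 fell there, so the fall of Hif1a on that diet did not hold in either setting. Protein was not measured.

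The rest of the mitophagy machinery did not rise with Bnip3 and Bnip3l. Of 29 other mitophagy genes 0 rose and 2 fell on the moderate diet, with a median log2 fold change of -0.04. The 2 were the kinase Ulk1 (-0.40) and Ambra1 (-0.27), named after their values were seen, both of which help to start autophagosomes. Without mutant replicate 3 the counts were again 0 and 2, without wild type replicate 2 they were 0 and 1, and without the libraries of contradicted sex 0 and 0. On the enriched diet 3 rose and 10 fell, with a median of -0.06, where 14.4% of all genes rose and 16.8% fell. The receptor Optn rose by 1.14 ± 0.20 (SE) from a low level, 1.61 ± 0.465 to 3.35 ± 0.528 CPM (SD, n = 4). The ligase Mul1 (-0.46 ± 0.09), the conjugation factor Atg5 (-0.45 ± 0.10) and the LC3 gene Map1lc3b (-0.37 ± 0.09) fell on that diet, and on the moderate diet they stood at -0.11, -0.16 and -0.05 and did not pass.

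Complex IV as a whole did not rise with Cox4i2 and Ndufa4l2. Of 11 other nuclear subunits tested 0 passed on the moderate diet, and 1 rose and 2 fell on the enriched diet. Cox6b2, the form known from testis, was the rise (0.65 ± 0.16 SE), and Cox6b1 (-0.28 ± 0.10) and Cox5a (-0.33 ± 0.12) were the falls. Cox7a1, a form of heart and skeletal muscle, was at 0.70 ± 0.23 on the moderate diet and did not pass (edgeR adjusted p = 0.0753). Of 21 assembly factors 0 passed on the moderate diet (1 rose without mutant replicate 3), and 2 rose and 5 fell on the enriched diet, among them the copper chaperone Cox19 (-0.59 ± 0.10), Coa7 (-0.35 ± 0.09) and the haem enzyme Cox10 (-0.33 ± 0.09), while Surf1 did not pass on either diet (0.30 ± 0.09 and 0.01 ± 0.09).

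Genes of mitochondrial shape and number went both ways. Of 10 fission and fusion genes 0 rose and 1 fell on the moderate diet, and 2 rose and 4 fell on the enriched diet. Mfn2, a fusion protein of the outer membrane, fell on both (-0.33 ± 0.09 SE and -0.38 ± 0.09), and on the enriched diet Mief2 fell (-0.76 ± 0.09) while Opa1 (0.35 ± 0.07) and Dnm1l (0.30 ± 0.08) rose. Without wild type replicate 2, and without the libraries of contradicted sex, 0 of the 10 passed on the moderate diet. Of 15 biogenesis genes 0 passed on the moderate diet (1 fell without mutant replicate 3), and 1 rose and 4 fell on the enriched diet, with the coactivator Ppargc1b at 1.47 ± 0.29 and the mitochondrial transcription factor Tfb2m at -0.52 ± 0.13. All of these lists are set against 7.62% of genes past the threshold in either direction on the moderate diet and 31.2% on the enriched diet. By direction, 4.79% rose and 2.83% fell on the moderate diet, and 14.4% rose and 16.8% fell on the enriched diet.

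**Figure D5:**
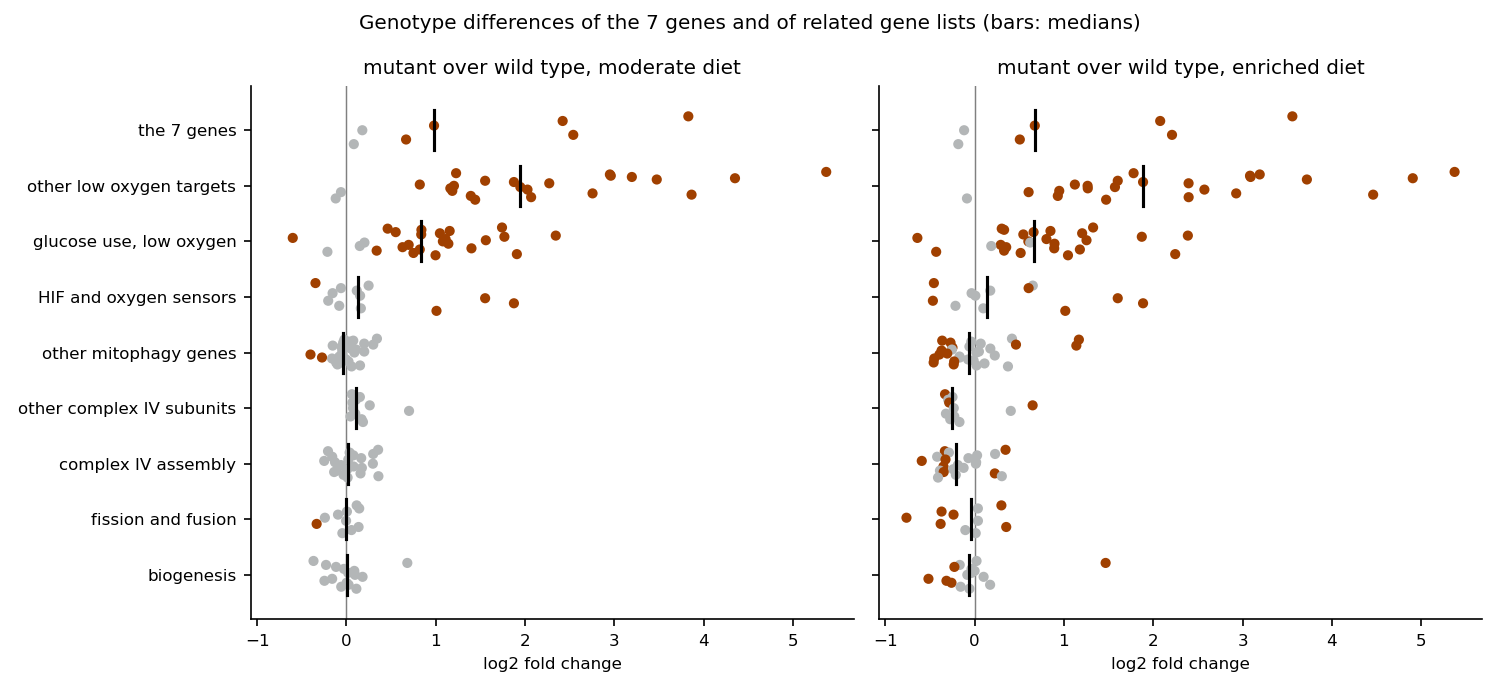
Log2 fold change in mutants (horizontal axes) of every tested gene in 9 lists (rows) on the moderate and the enriched diet; each point is a gene, brown where it passed an adjusted p of 0.05 and grey where it did not, and each black bar is the list's median. The 2 lists of low oxygen targets lie mostly to the right of 0 like the 7 genes, and the other mitophagy, complex IV, fission and biogenesis genes are spread around it.

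Several members are also known from particular cell types, so markers of these are given beside them. Pericytes are known for Cox4i2, Ndufa4l2 and Higd1b. Of 12 pericyte and mural markers, Rgs5, Kcnj8, Cspg4 and Higd1b were under 1 CPM in every library, and of the 9 tested 2 rose on each diet and 0 fell. Of all genes 4.79% rose and 2.83% fell on the moderate diet, and 14.4% rose and 16.8% fell on the enriched diet. On the moderate diet 3 rose without mutant replicate 3, 0 without wild type replicate 2 and 0 without the libraries of contradicted sex. The summed level of the 12 was 346 to 397 CPM in moderate diet wild type and 387 to 466 CPM in the mutants, and 336 to 390 and 393 to 471 CPM in wild type and mutants on the enriched diet. Notch3 held most of these sums. Its mean was 219 and 264 CPM in wild type and mutants on the moderate diet, and 206 and 283 CPM on the enriched diet. The sum therefore mostly follows that gene. Endothelial markers summed to 528 to 622 and 601 to 677 CPM in wild type and mutants on the moderate diet, and to 572 to 647 and 560 to 603 CPM on the enriched diet, with 3 of 15 up on the moderate diet and 2 up and 4 down on the enriched diet. Without mutant replicate 3, without wild type replicate 2 and without the libraries of contradicted sex, 4, 2 and 0 of the 15 were up on the moderate diet. In the same order, 14.6%, 4.94% and 0.726% of all genes then passed in either direction. The part of these cell types in the rise of the members was not tested.

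Markers of tissues next to the head were mostly counted at low levels. Trophoblast and decidua markers summed to 5.72 to 9.59 CPM in wild type and 7.11 to 25.3 CPM in mutants on the moderate diet, and to 5.70 to 11.7 and 8.09 to 198 CPM on the enriched diet. Of 6 tested, 1 rose on the moderate diet and 2 on the enriched diet, against 4.79% and 14.4% of all genes. On the moderate diet 1 rose and 1 fell without mutant replicate 3, and 1 of 5 tested rose without wild type replicate 2. None of 5 tested passed without the libraries of contradicted sex. In the same order, 14.6%, 4.94% and 0.726% of all genes passed in either direction. Ascl2, a transcription factor of the placenta, rose on both (3.19 ± 0.62 SE, edgeR adjusted p = 0.00491, and 3.35 ± 0.61, adjusted p = 0.00119). Prl8a2, a hormone of the decidua, passed on the enriched diet (7.04 ± 2.08, edgeR adjusted p = 0.0183). There it was at 0.131 ± 0.0582 CPM in wild type and 48.2 ± 93.6 CPM in mutants (SD, n = 4), a spread larger than the mean. On the moderate diet Prl8a2 stood at -3.07 ± 2.76 (SE) and did not pass. Hand1 (3.35 and 0.61) and Dcn (-0.25 and -1.33) did not pass on either diet. The part of these tissues in the rise of the members was not tested. Yolk sac and visceral endoderm markers summed to 14.4 to 26.9, 8.74 to 40.6, 14.4 to 34.4 and 8.70 to 140 CPM in the same order, with 0 of 10 past the threshold on either diet. In moderate diet mutant replicate 3 the trophoblast and yolk sac sums were 25.3 and 40.6 CPM, the highest of its group. Its erythroid and cardiomyocyte sums, 3429 and 9.34 CPM, were also the highest of that group. Cardiomyocyte markers summed to at most 9.34 CPM in any library, with Tnnt2, Nppa and Nkx2-5 under 1 CPM throughout. The part of these tissues in the low values of that library was not tested.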

How the data were processed

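Per the labels' protocols, an AllPrep kit yielded the RNA and a TruSeq v2 kit the libraries. The authors used, per the submitters' processing notes, FastQC 0.11.5, TopHat2 2.1.1 on build mm10, SAMtools 1.8, HTSeq 0.9.1 and DESeq2 1.22.2; annotation, counting mode and strand option: not given in the sources used here. Values deposited by the authors are raw counts per gene symbol. Their 5 summary lines were left out (13.7 to 17.0% of reads on no feature, 1.20 to 1.39% ambiguous). Totals of 19249433 to 44267434 counts set the counting precision, and no libraries were identical.

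Genes reaching 10 counts in 4 or more libraries (14514) were fitted with edgeR 4.0.16 in R 4.3.3, using trimmed mean scaling, a coefficient for each group and the labelled sex as covariate over all 16 libraries. The threshold was a Benjamini-Hochberg adjusted p of 0.05 over all genes. The standard error is the log2 fold change divided by the square root of F. CPM values are computed from scaled totals. Positions and exon lengths are from GENCODE vM21 (mm10), which may differ from the authors' annotation. Ratios of paralogs were tested by exact permutation (SciPy 1.17.1). The fit was tested on simulated data.

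Named genes are the 7 members, their paralogs, genes from among the 4 of each list with the smallest p on either genotype contrast, Ift88, and the 3 nearest profiles per member with a mean of at least 1 CPM. Not all of these 4 are named, only Notch3 in the pericyte list, and none in the endothelial, erythroid, cardiomyocyte and yolk sac lists. Genes outside this rule (Shmt2 and Emc8, Pfkfb4, Iscu, Hif1a, Ulk1, Ambra1 and markers given as under 1 CPM) were named after their values were seen. Gm45507 and Gm47112 are named for their overlap with members and have no values in the count tables. Members, lists and rules were chosen with earlier results of these data known. Alternatives were median-of-ratios scaling, DESeq2 1.42.0, limma-voom (limma 3.58.1), other filters, sex settings and thresholds, a replicate block, groups alone, and leaving out libraries.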

Additional observations from a re-analysis of the deposited data

Results flagged for a closer look

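Among 40 groups of 4 values checked, 3 held a library far from the other 3, where chance gives about 1 in 20. Cox4i2 was at 5.21 CPM in moderate diet mutant replicate 3, and the other moderate diet mutants were at 11.6 to 12.0 CPM. The Bnip3 share of Bnip3 and Bnip3l was 26.3% in the same library and 44.7 to 48.1% in the other mutants of its group. The Ndufa4l2 share of Ndufa4l2 and Ndufa4 was 3.80% in enriched diet wild type replicate 4 and 1.26 to 1.66% in the other libraries of its group.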

How the results depend on the processing

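Each genotype difference was recomputed under 27 alternatives. The calls of Ndufa4l2, Cox4i2, Bnip3 and Bnip3l held in all 27 on both diets, and that of Higd1a in 26 on the moderate diet, where without the libraries of contradicted sex the count of members fell to 4 (Higd1a 0.51, adjusted p = 0.225). Log2 fold changes ranged from 3.43 to 4.05 for Ndufa4l2 and from 0.51 to 0.79 for Higd1a on the moderate diet. Genes called there numbered 1106, but 105 without the libraries of contradicted sex, 1906 at an adjusted p of 0.1, 719 with the groups compared alone and 538 to 2107 with single libraries left out, the highest without mutant replicate 3. Of the genes called on the enriched diet 46.2% were higher in mutants, and 50.3% with median-of-ratios scaling. The replicate numbers do not pair the libraries (8 of 24 pairs correlated above 0.1, and 6 of 16 libraries were closest to their own number); with the replicate block 5 of 7 members passed on both diets, among 1453 and 4979 genes.

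Estimates near 0 changed sign without passing any test. Without the libraries of contradicted sex, the diet difference in mutants was 0.21 for Bnip3l and 0.018 for Cox4i1, the averaged genotype difference of Cox4i1 was -0.050 and the interaction of Ndufa4l2 was 0.10. With each library left out in turn, the diet difference in mutants ran from -0.023 to 0.47 for Bnip3, -0.10 to 0.074 for Bnip3l and -0.045 to 0.14 for Higd1a, the averaged genotype difference of Cox4i1 from -0.0091 to 0.084 and the interaction of Ndufa4l2 from -0.49 to 0.064. The diet difference in the ratio of Bnip3 to Bnip3l ran from 0.23 to 0.50 and passed without enriched diet wild type replicate 2 (exact permutation, adjusted p = 0.0159); the cause was not tested. The alternatives for the ratios were chosen after seeing the data. Ndufa4l2 in wild type rests on 22 to 164 counts per library, which limits its fold change.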
